A study of Mus musculus with 12 samples.

Results

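The genes of 10 ion channels that microglia, the resident macrophages of the brain, are known to use were followed after stroke: the potassium channel genes Kcnk13, Kcnk6, Kcna3, Kcnj2, Kcnn4 and Kcnma1, the cation channel genes Trpv2, Trpm2 and Trpm7, and Clic1. They were chosen by name, with earlier results of these data known, and are 10 of the 53801 genes in the count table. All 10 passed the filter on low counts that left 35674 genes, and none fell below 22 counts in any library. The 12 RNA-seq libraries, 3 in each of 4 groups, came from P2RY12+ cells taken with magnetic beads 72 h after transient occlusion of the middle cerebral artery, which stops blood flow to a large part of 1 hemisphere and then lets it return. The WT group carried Cx3cr1-CreER+/- with wild-type alleles of the targeted gene, and the cKO group Cx3cr1-CreER+/- with both alleles floxed. Tamoxifen was given to all mice weeks before the operation, so both genotypes carried the Cre transgene, had 1 disrupted Cx3cr1 allele and had received the drug. The Cx3cr1 promoter is active in microglia and also in blood monocytes, where cells with a deleted gene are replaced over time. CL names the contralateral hemisphere and IL the ipsilateral, injured one. Mice were young adults of both sexes. The study took cells from both hemispheres of its brains and states 3 independent animals, so CL and IL libraries of a genotype may share animals. No source used here ties a library to an animal, so the tests treat CL and IL libraries as unpaired. P-values therefore measure the spread between these libraries. Within a genotype, libraries are called a, b and c by the number that heads their columns.

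Ion channels set the membrane voltage of microglia and let calcium, potassium and chloride cross the membrane, which in turn steers their movement, swelling, cytokine release and production of reactive oxygen. Kcnk13 encodes THIK-1, a tandem-pore potassium channel that gives resting microglia most of their potassium conductance, and Kcnk6 encodes TWIK-2, through which macrophages lose potassium before the NLRP3 inflammasome forms. Kcna3 encodes a voltage-gated and Kcnn4 a calcium-activated potassium channel, both of which keep the membrane negative while calcium enters. Kcnj2 encodes a strong inward rectifier, and Kcnma1 the pore of the large-conductance calcium-activated potassium channel. Trpv2 is a calcium-permeable channel of phagocytic cells, Trpm2 is opened by ADP-ribose during oxidative stress, and Trpm7 passes magnesium and calcium and carries a kinase domain. Clic1, the one member that conducts chloride, can move from the cytosol to the membrane.

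On GRCm38 the genes lie on 8 chromosomes. Kcnk13 is at chr12:99964499-100062682 on the plus strand, Kcnk6 at chr7:29221926-29232515 on the minus strand, and Kcna3 at chr3:107036169-107038070 on the plus strand. Kcnj2 is at chr11:111066164-111076821 and Trpv2 at chr11:62574486-62600515, both on the plus strand, and Kcnn4 shares chromosome 7 with Kcnk6, at chr7:24370263-24386690 on the plus strand. Kcnma1 is at chr14:23289431-24014491 and Trpm2 at chr10:77907722-77970563, both on the minus strand. Trpm7 is at chr2:126791565-126876230 on the minus strand and Clic1 at chr17:35049966-35058749 on the plus strand. Each level is a count over the exons of the whole gene. The exons of Kcnma1 overlap those of an antisense gene, 4930519K11Rik, over 1016 bp, and those of Trpm2 overlap the small RNA genes Gm22871 and Gm22394 over 47 and 44 bp, so reads there may be shared.

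Trpm7, Clic1, Kcna3 and Kcnn4 had the 4 largest differences between hemispheres in cKO microglia, and their promoters are shown for that reason. Each run is the 300-base window around the RefSeq start, most of it before the start, on GRCm38.p6, read 5′ to 3′ along the gene's strand, and capitals mark matches to CACGTG (an E-box) or TGANTCA (an AP-1 motif) on either strand.
Trpm7 chr2:126876212-126876511 minus strand: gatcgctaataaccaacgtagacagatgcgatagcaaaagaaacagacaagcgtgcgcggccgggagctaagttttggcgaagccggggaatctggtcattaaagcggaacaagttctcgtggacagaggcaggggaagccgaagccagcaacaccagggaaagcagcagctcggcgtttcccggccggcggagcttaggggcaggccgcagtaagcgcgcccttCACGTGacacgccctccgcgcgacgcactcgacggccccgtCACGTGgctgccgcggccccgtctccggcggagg
Clic1 chr17:35049993-35050292 plus strand: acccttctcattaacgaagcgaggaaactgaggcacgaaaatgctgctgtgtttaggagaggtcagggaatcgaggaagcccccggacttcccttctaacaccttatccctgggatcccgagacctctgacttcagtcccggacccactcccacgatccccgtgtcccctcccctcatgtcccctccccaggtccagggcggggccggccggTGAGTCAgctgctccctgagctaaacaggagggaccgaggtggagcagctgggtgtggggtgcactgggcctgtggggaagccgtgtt
Kcna3 chr3:107035912-107036211 plus strand: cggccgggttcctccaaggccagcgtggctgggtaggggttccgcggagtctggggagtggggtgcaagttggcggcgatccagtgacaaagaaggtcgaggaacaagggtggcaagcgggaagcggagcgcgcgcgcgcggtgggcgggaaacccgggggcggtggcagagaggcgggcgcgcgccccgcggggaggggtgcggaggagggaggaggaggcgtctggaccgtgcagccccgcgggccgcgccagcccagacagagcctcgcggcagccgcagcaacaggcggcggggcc
Kcnn4 chr7:24370013-24370312 plus strand: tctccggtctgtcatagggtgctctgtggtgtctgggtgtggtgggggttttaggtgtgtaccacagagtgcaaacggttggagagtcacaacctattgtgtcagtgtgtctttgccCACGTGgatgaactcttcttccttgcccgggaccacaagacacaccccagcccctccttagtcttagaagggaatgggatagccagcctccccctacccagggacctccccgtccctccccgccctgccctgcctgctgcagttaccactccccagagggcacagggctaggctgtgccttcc
The Trpm7 promoter holds 2 CACGTG matches, that of Kcnn4 holds 1, that of Clic1 holds 1 TGANTCA match, and Kcna3 holds neither motif. Over the 9 members with a promoter in the table, CACGTG also occurs in Kcnj2, so 3 of 9 have it, beside 7.15% of 32851 promoters. TGANTCA occurs in 1 of 9, beside 7.81% of all promoters, and GAGGAAGT, an ETS motif of the PU.1 type, occurs in 1 of 9, Trpv2, beside 3.2%. A member is counted if any of its windows matches, and Trpv2 has several, while the percentages are of single windows. No motif occurs in all 4 promoters shown, and a match is a match of letters only.

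Libraries of WT mice held 2091512 to 12647526 counts for CL and 18425180 to 25166928 for IL. Those of cKO mice held 9743603 to 20349883 for CL and 43961276 to 47256174 for IL. Depth thus differed between groups in the direction of injury. It also differed by genotype: every cKO IL library was deeper than every WT IL library, while the CL ranges overlapped. The part of depth in the genotype comparisons was not tested. The 10 microglia markers were present in every group, with a summed level of 6473 to 10243 CPM for WT CL, 4377 to 9337 for WT IL, 4834 to 9059 for cKO CL and 3827 to 7529 for cKO IL (CPM, counts scaled to library size after TMM normalization, which sets a scale from the bulk of genes on the premise that most do not change). The summed level of 10 monocyte markers was 135, 255 and 6033 CPM in WT CL libraries b, c and a, 528, 3454 and 7257 in WT IL libraries a, b and c, 235 to 590 in cKO CL, and 6872 to 17370 in cKO IL. Of that list only Ms4a4c was at 0 in every WT CL library, and none was at 0 throughout another group. WT CL library a and WT IL library a thus stood apart from their groups, on opposite sides. Fn1 made up most of this sum, at up to 5976 CPM in WT CL and a mean of 12265 CPM in cKO IL. Ccr2, Chil3 and Plac8 were at most 16.7, 1.80 and 0.900 CPM in WT CL. The sum therefore follows mainly Fn1, and a high sum alone does not show more monocytes. Other markers of the list were also higher in IL. In cKO, Ccr2 averaged 18.5 and 382 CPM in CL and IL, and Chil3 8.55 and 343 CPM. All 10 had positive IL over CL values in cKO, and 5 passed the edgeR test described below. In WT, 7 of the 10 were positive and 3 passed. The summed level of 6 markers of border-associated macrophages was 97.6 to 311 CPM in CL and 196 to 734 CPM in IL for WT, and 179.9 to 290.4 and 480.3 to 1279 CPM for cKO. These 6 did not move together, and 4 had positive IL over CL values in each genotype. F13a1 averaged 42.4 and 244 CPM in WT CL and IL, and 56.4 and 629 CPM in cKO. Cd163 went the other way, at 65.8 and 36.8 CPM in WT and 73.6 and 28.1 CPM in cKO, and Lyve1 was also lower in IL. In bulk libraries, fewer cells of a type and less RNA per cell cannot be told apart.

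Per kilobase of exon, Clic1 had the highest mean level of the 10 genes in every group and Kcnma1 the lowest. In WT CL, Clic1 stood at 29.3 ± 26.4 RPKM (SD, n = 3), Kcnk6 at 25.5 ± 2.70, Kcnk13 at 18.8 ± 8.06, Trpm2 at 13.4 ± 2.37, Trpv2 at 10.9 ± 7.94 and Kcna3 at 9.83 ± 6.28. The order went on with Kcnn4 at 6.94 ± 8.15 RPKM, Kcnj2 at 4.41 ± 3.50, Trpm7 at 4.40 ± 0.523 and Kcnma1 at 2.99 ± 0.609. Neighbours in this order overlapped between libraries, apart from Trpm7 and Kcnma1. In cKO IL, Clic1 at 144 ± 11.7 RPKM was clear of all others, followed by Kcnk6 at 31.7 ± 10.2, Kcnk13 at 30.6 ± 6.18, Kcna3 at 22.8 ± 4.25, Trpv2 at 20.2 ± 3.28, Trpm7 at 18.1 ± 3.92 and Kcnn4 at 18.0 ± 6.42. Trpm2 there was at 11.3 ± 0.393 RPKM, Kcnj2 at 6.63 ± 3.12 and Kcnma1 at 1.81 ± 1.08, and these last 3 did not overlap with each other. The tandem-pore channels Kcnk6 and Kcnk13 had the highest mean levels per length of the 6 potassium channel genes in all 4 groups.

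**Figure D1:**
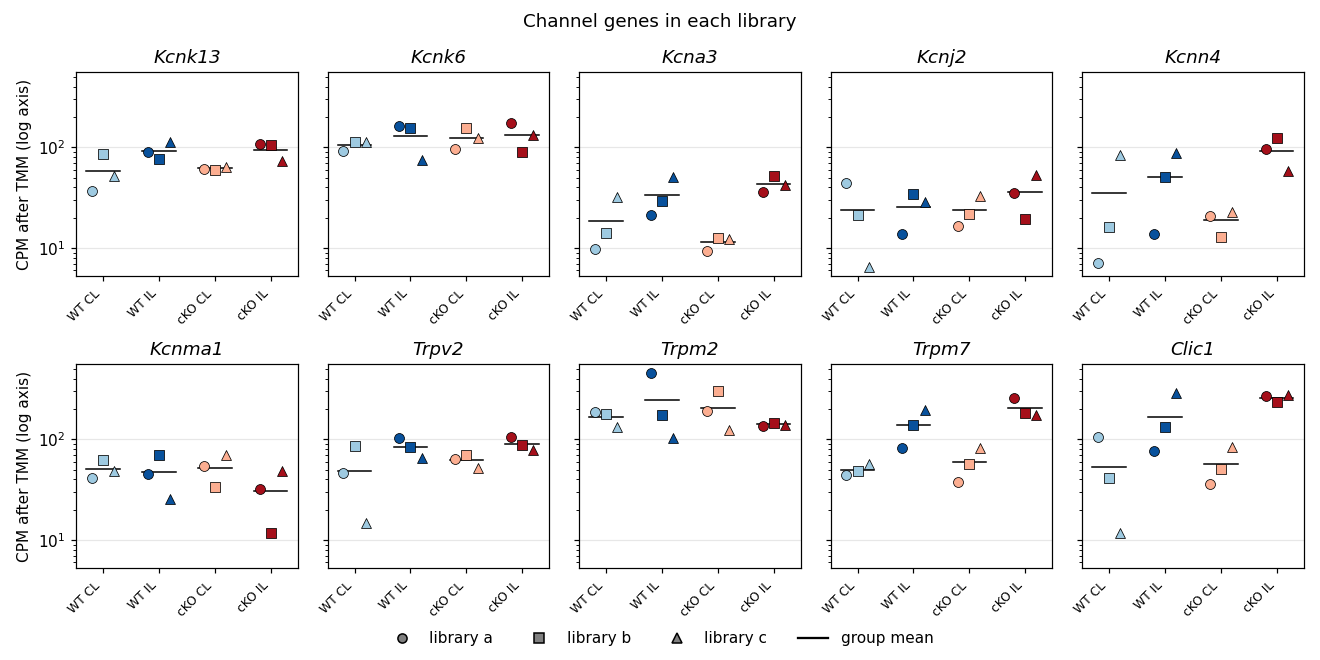
Level of each of the 10 channel genes, in CPM after TMM on a log axis, in the 12 libraries, by genotype and hemisphere. Symbols are libraries and bars are group means; within each genotype Trpm7 is higher in every IL than in every CL library, and Kcnj2 overlaps between all groups.

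The effect of injury was read from IL against CL within each genotype. Genes were tested with edgeR's quasi-likelihood test on the counts, and one is called, or said to rise or fall, at an adjusted p under 0.05 over all genes tested. In cKO microglia, Trpm7 was at 37.6, 56.9 and 82.3 CPM in CL libraries a, b and c and at 256, 182 and 176 CPM in IL. All IL libraries were above all CL libraries. It rose 3.47-fold (log2 fold change 1.80, SE 0.46, edgeR adjusted p = 0.0384, 3 libraries a group), and it was the 1 of 10 members that passed the test, beside 3.46% of all genes tested, 1050 of them higher and 183 lower in IL. The call was lost with RLE scaling, another method of that kind (adjusted p = 0.0563), with library totals (log2 fold change 0.92, adjusted p = 0.127), with TMM from abundant genes (0.94, 0.128) and with counts thinned to the smallest library (1.40, 0.0565). It was also lost when any one of the 6 cKO libraries, WT CL library b or WT IL library b was left out (adjusted p 0.0531 to 0.187), while DESeq2 kept it (adjusted p = 0.00985). With the number heading the columns as a replicate block, the call was lost too (log2 1.84, edgeR adjusted p = 0.0659).

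Clic1 was at 36.3, 50.7 and 83.4 CPM in the cKO CL libraries and at 269, 236 and 275 CPM in IL, with no overlap and with the IL libraries close to each other. Its level in IL was 4.58-fold that in CL (log2 2.19, SE 0.60), at an edgeR adjusted p of 0.0525. Kcna3 was at 9.38, 12.6 and 12.3 CPM in CL and at 35.9, 51.9 and 42.2 CPM in IL, again with no overlap. The ratio was 3.80-fold (log2 1.92, SE 0.56, edgeR adjusted p = 0.0639). Kcnn4 was at 21.0, 12.8 and 22.6 CPM in CL and at 95.4, 123 and 57.7 CPM in IL, where even the lowest IL library exceeded the highest CL library. Its difference was the largest of the 10 in size and in error (4.90-fold, log2 2.29, SE 0.70, edgeR adjusted p = 0.0802). None of these 3 genes passed the edgeR test in the fit of 12 libraries. Of 21 other settings, Clic1 and Kcna3 passed in 8 each and Kcnn4 in 6, and all 3 kept their sign in all 21.

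Of the tandem-pore channels, Kcnk13 was at 61.4, 59.9 and 64.1 CPM in cKO CL, within 1.07-fold of each other, and at 108, 105 and 73.0 CPM in IL, with no overlap. The difference was small (log2 0.62, SE 0.45, edgeR adjusted p = 0.35). Trpv2 was at 64.1, 70.4 and 52.2 CPM in CL and at 107, 87.3 and 77.8 CPM in IL, also with no overlap (log2 0.54, SE 0.51, edgeR adjusted p = 0.464). For both genes the sign turned with library totals (log2 -0.29 for Kcnk13, -0.36 for Trpv2) and with TMM from abundant genes (-0.31 and -0.39), so their direction depends on the scaling.

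The other members overlapped between hemispheres in cKO microglia. Trpm2, the most counted member in CL, was at 190.0, 304 and 125 CPM there and at 136, 146 and 140.0 CPM in IL, a narrow range within that of CL (log2 -0.55, SE 0.50, edgeR adjusted p = 0.448). Kcnma1 was at 54.1, 33.4 and 70.1 CPM in CL and at 32.0, 11.7 and 48.4 CPM in IL (log2 -0.77, SE 0.55, adjusted p = 0.344). These were the 2 members with negative values. Kcnk6 had 125 ± 29.6 CPM in CL and 132 ± 42.3 in IL, and Kcnj2 23.7 ± 8.49 and 36.1 ± 17.0 CPM (SD, n = 3), differences within their standard errors.

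Counted over the set, 6 of 10 members were higher in every cKO IL than in every cKO CL library, where 18.5% of all genes were, and 0 were lower, where 35.9% of all genes were. The sign of 2 of these 6, Kcnk13 and Trpv2, turned under other scalings, as given above. By edgeR's unadjusted p under 0.05, 4 members (Clic1, Kcna3, Kcnn4 and Trpm7) passed, beside 24% of all genes, and the same 4 passed with a fold change over 2 in addition, beside 23.8%. DESeq2 called 3 of the 10 (Clic1, Kcna3 and Trpm7), beside 21.9% of the genes to which it gave an adjusted p. The median log2 fold change of the members was 0.61, with 8 above 0, while that of all tested genes was -1.33, with 31.6% above 0. The median of all genes moved to -1.56 with RLE scaling, -2.26 with library totals and -2.3 with TMM from abundant genes, and stood at -0.0378 among the genes with at least 10 counts in every library. Fold changes are therefore given relative to the TMM scale.

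**Figure D2:**
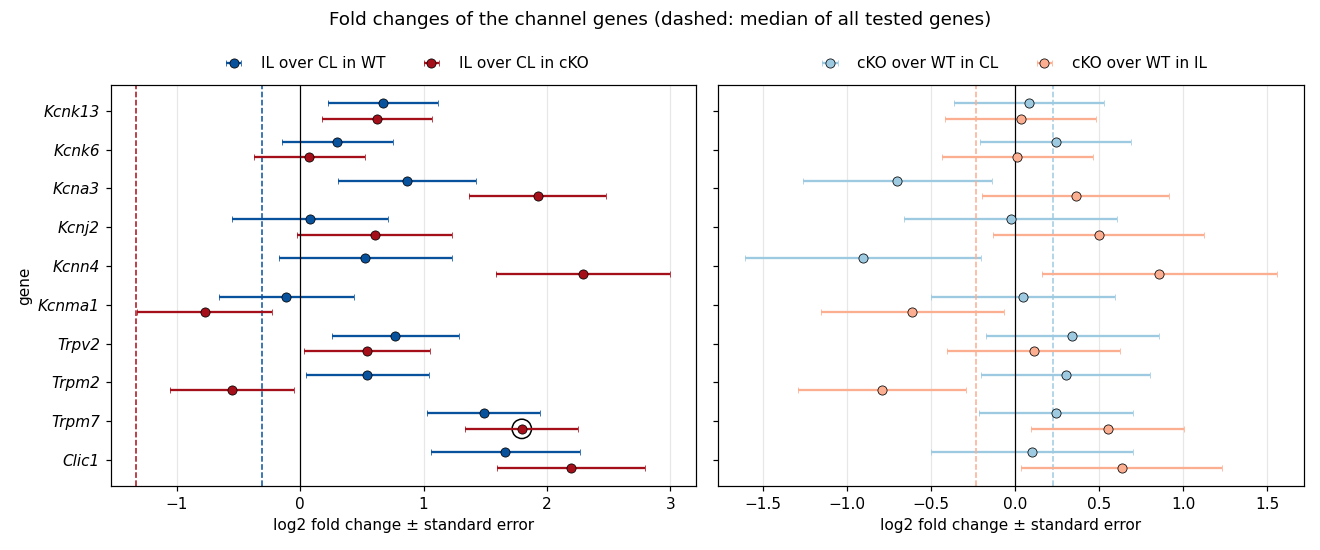
Log2 fold change with its standard error for each channel gene, IL over CL on the left and cKO over WT on the right, from 1 edgeR fit of 12 libraries. Dashed lines are the medians of all tested genes, and the ring marks Trpm7 in cKO, the one member that passed an adjusted p of 0.05.

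In WT microglia Clic1 and Trpm7 had the largest log2 fold changes of the set. Trpm7 was at 44.8, 48.4 and 56.3 CPM in WT CL and at 82.2, 139 and 197 CPM in IL. The groups did not overlap, and the ratio was 2.80-fold (log2 1.49, SE 0.46, edgeR adjusted p = 0.116). Clic1 was at 105, 41.4 and 11.7 CPM in CL and at 76.3, 133 and 293 CPM in IL, where library a of each hemisphere lay in the range of the other (log2 1.66, SE 0.60, edgeR adjusted p = 0.166). Without WT CL library a, Clic1 was called (log2 2.93, adjusted p = 0.0286), without WT IL library c it was at 0.998, and without WT IL library a, Trpm7 was called (adjusted p = 0.046). The library a of each hemisphere was the one whose monocyte marker sum stood apart, and their part in the values was not tested.

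The other WT values overlapped. Kcna3 was at 9.85, 13.9 and 32.3 CPM in WT CL and at 21.0, 29.3 and 51.0 CPM in IL (log2 0.86, SE 0.56, or 1.70 without WT CL library c). Kcnn4 spread from 7.01 to 83.3 CPM in CL and from 13.7 to 87.5 CPM in IL, an 11.9-fold and a 6.39-fold range within a group, so no difference could be read. Trpm2 was at 187, 181 and 133 CPM in CL and at 455, 174 and 102 CPM in IL, and its log2 fold change of 0.54 (SE 0.50) became -0.26 without WT IL library a. Kcnk13 (58.4 ± 25.1 and 93.0 ± 18.0 CPM in CL and IL) and Trpv2 (49.0 ± 35.6 and 83.9 ± 18.4 CPM) had log2 fold changes of 0.67 (SE 0.45) and 0.77 (SE 0.51, or 1.45 without WT CL library b). Kcnk6 at 106 ± 11.2 and 131 ± 48.9 CPM, Kcnj2 at 24.0 ± 19.0 and 25.5 ± 10.7 CPM and Kcnma1 at 50.8 ± 10.3 and 46.9 ± 22.4 CPM differed by less than their standard errors.

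None of the 10 members passed the edgeR test for IL over CL in WT, where 0.608% of all genes did. At an unadjusted p under 0.05, 2 members passed (Clic1 and Trpm7), beside 18.3% of all genes, and the same 2 with a fold change over 2, beside 18%. DESeq2 called 1, Trpm7 (adjusted p = 0.0464), beside 15.2%. One member, Trpm7, was higher in every IL library, beside 10.3% of all genes, and 0 were lower throughout, beside 6.62%. The members' median log2 fold change was 0.61, with 9 of 10 above 0, and that of all genes was -0.31, with 43.7% above 0. In WT the members' counts of calls and of groups without overlap thus lay near the shares of all genes. More of their signs were positive, but this depends on the filter and the scaling. Among genes with at least 10 counts in every library, as all members have, the median of all genes was -0.039. With TMM from abundant genes, Kcnk13 (log2 -0.23), Kcna3 (-0.28) and Trpm2 (-0.24) turned negative.

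A second reading that needs no scaling took the share of each gene in the reads of the 10 genes together, with exact Clopper-Pearson 95% intervals that cover counting error only. In cKO microglia, Clic1 took 6.18, 6.52 and 12.5% of these reads in CL libraries a, b and c and 21.5, 22.4 and 25.6% in IL. Trpm7 took 6.41, 7.32 and 12.3% in CL and 20.5, 17.3 and 16.4% in IL. Kcna3 went from 1.60, 1.62 and 1.84% to 2.87, 4.94 and 3.93%, and Kcnn4 from 3.58, 1.65 and 3.38% to 7.64, 11.7 and 5.36%. For these 4 genes every IL share exceeded every CL share.

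Trpm2 and Kcnk6 lay the other way. Trpm2 took 32.4, 39.1 and 18.6% of the reads in cKO CL, the largest share there on average, and 10.9, 13.9 and 12.99% in IL (interval of the highest IL library 13.5 to 14.3%, of the lowest CL library 18.0 to 19.2%). Kcnk6 went from 16.4, 20.0 and 18.6% to 13.9, 8.49 and 12.3%. Kcnk13, Kcnj2, Kcnma1 and Trpv2 overlapped in their shares, including Kcnk13 and Trpv2, whose CPM did not overlap. In WT microglia all 10 shares overlapped between hemispheres: Clic1 took 17.0, 6.19 and 2.13% in CL and 7.18, 14.1 and 28.2% in IL, and Trpm2 took 30.4, 27.1 and 24.2% and then 42.9, 18.4 and 9.88%. Shares add to the whole within a library, so a higher share of one gene lowers the others. The summed level of the 10 genes was 551 to 669 CPM in WT CL, 947 to 1063 in WT IL, 586 to 777 in cKO CL and 1052 to 1248 in cKO IL, with no overlap between hemispheres in either genotype on the TMM scale. This separation depends on the scaling. With library totals alone, every cKO IL sum lay below every cKO CL sum, and the WT hemispheres overlapped. The TMM factors were 0.618 to 0.743 in cKO IL and 1.08 to 1.55 in cKO CL.

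**Figure D3:**
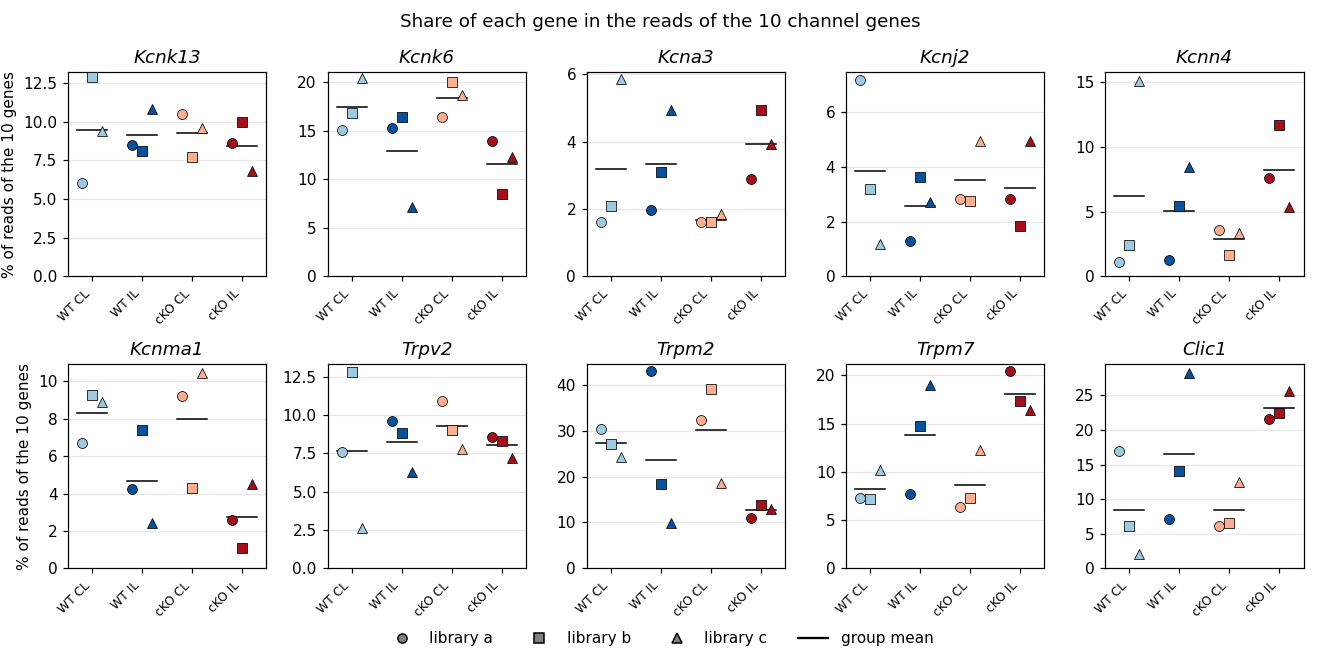
Percent of the reads of the 10 channel genes taken by each gene, in the 12 libraries; symbols are libraries, bars are group means, and each panel has its own linear axis from 0. In cKO, Clic1, Trpm7, Kcna3 and Kcnn4 take larger and Trpm2 and Kcnk6 smaller shares in IL than in CL without overlap, while all WT shares overlap.

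Whether the deletion changed these channels was read from cKO against WT within a hemisphere. In CL no member passed the edgeR test, beside 0% of all genes, and none passed at an unadjusted p under 0.05, beside 4.72% (4.71% with a fold change over 2). DESeq2 called 0 members, beside 0.0926%. No member separated the genotypes in CL, where 9.27% of all genes were higher and 1.38% lower in every cKO library. Kcna3 had 18.7 ± 11.9 CPM in WT and 11.4 ± 1.77 in cKO (SD, n = 3; log2 -0.70, SE 0.56, or -0.10 without WT CL library c). Kcnn4 had 35.5 ± 41.7 and 18.8 ± 5.27 CPM (log2 -0.90, SE 0.70), and this value rested on WT CL library c, without which it was 0.64. The other 8 members differed by less than their standard errors, with log2 values from -0.03 to 0.34.

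In IL no member passed the edgeR test either, beside 0% of all genes, and none passed at an unadjusted p under 0.05, beside 2.36%, or with a fold change over 2 in addition, beside 2.36%. DESeq2 called 0, beside 0.0113%. No member separated the genotypes, where 4.83% of all genes were higher and 4.39% lower in every cKO library. Kcnn4 had 50.8 ± 36.9 CPM in WT and 92.1 ± 32.9 in cKO (log2 0.86, SE 0.70, or 1.503 without WT IL library c), and Trpm7 139.7 ± 57.6 and 205 ± 44.4 CPM (log2 0.55, SE 0.46). Clic1 had 167 ± 112 and 259.9 ± 21.0 CPM (log2 0.63, SE 0.60), with WT IL library c above all cKO libraries and a value of 1.31 without it. Trpm2 had 244 ± 187 and 141 ± 4.90 CPM (log2 -0.79, SE 0.50), a difference that was 0.029 without WT IL library a. Kcnma1 had 46.9 ± 22.4 and 30.7 ± 18.4 CPM (log2 -0.61, SE 0.55). The remaining 5 members differed by less than their standard errors, between 0.01 and 0.50 on the log2 scale.

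The interaction, the IL over CL change in cKO minus that in WT, tested directly whether the genotypes responded unequally. No member passed the edgeR test, beside 0% of all genes, and none at an unadjusted p under 0.05, beside 3.8% (3.8% with a fold change over 2 in addition), and DESeq2 called 0, beside 0.0113%. Kcnn4 had the largest value (log2 1.76, SE 0.99, edgeR adjusted p = 1), followed by Trpm2 (-1.10, SE 0.71) and Kcna3 (1.06, SE 0.79). The Kcnn4 value was 0.37 without WT CL library c and 2.40 without WT IL library c, and that of Trpm2 was -0.28 without WT IL library a. Trpm7, called in cKO and not in WT, had an interaction of 0.31 (SE 0.65), and Clic1 one of 0.53 (SE 0.85), so neither was shown to differ between the genotypes. Standard errors of the interaction ran from 0.63 to 0.99 over the members, which sets how small a difference 3 libraries a group could show.

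In all, 4 lists of other channel genes were counted beside the members in IL over CL, and all of their genes were tested. Over all genes tested, 3.46% passed in cKO and 0.608% in WT, with median log2 fold changes of -1.33 and -0.31. Of 23 other potassium channel genes, 1 rose and 1 fell in cKO microglia. Kcnab2, a beta subunit that binds Kv1-family channels such as that of Kcna3, rose from 18.0 ± 3.62 to 101 ± 39.7 CPM (SD, n = 3; log2 2.49, SE 0.65, edgeR adjusted p = 0.0459). Kcna2, a neuronal Kv1-family channel, fell from 16.7 ± 5.14 to 2.48 ± 0.963 CPM (log2 -2.74, SE 0.67, adjusted p = 0.0379), and Kcnn3, a small-conductance calcium-activated channel, was at log2 -2.48 (SE 0.72, adjusted p = 0.0683). The median of this list was -2.05, with 2 of 23 above 0, against 0.61 for the members and -1.33 for all genes tested. Among genes with at least 10 counts in every library, the median of all genes was -0.0378. Several of the 23 were at a few CPM or less, such as Kcnmb4 at 0.427 and Kcnj11 at 0.524 CPM in cKO IL. The part of abundance and scaling in this contrast was not tested. In WT microglia 0 of 23 passed (edgeR, lowest adjusted p = 0.0751), and the median was -1.37; the lowest p-values belonged to Kcnn1, Kcnn3 and Kcnj16, all lower in IL (log2 -2.88, -2.48 and -3.71).

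Of 15 other TRP channel genes, 1 fell in cKO, Trpm8, the cold and menthol receptor of sensory neurons, from 15.0 ± 6.29 to 2.02 ± 1.10 CPM (log2 -2.89, SE 0.72, edgeR adjusted p = 0.0397). Trpm3 and Trpc1 followed at -2.06 (SE 0.71) and -2.46 (SE 0.84) without passing, and the median was -1.35. In WT, Trpm8 was at -3.22 (SE 0.72, adjusted p = 0.0546), Trpm6 at -2.37 (SE 0.70) and Pkd2 at -1.49 (SE 0.53), and 0 of 15 passed. The summed level of 6 neuron markers moved with these falls and with that of Kcna2. In cKO the sum was 57.6 to 94.1 CPM in CL and 12.2 to 20.8 CPM in IL. For WT it was 54.2 to 84.0 and 17.5 to 47.1 CPM. Its part in these falls was not tested. None of the 6 markers was at 0 throughout a group.

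Of 15 other chloride and volume-regulated channel genes, 1 rose in cKO, Clcn5, a chloride-proton exchanger of endosomes, from 25.3 ± 3.56 to 98.2 ± 25.5 CPM (log2 1.96, SE 0.52, edgeR adjusted p = 0.0446). Ano6, a lipid scramblase and ion channel, was at 1.70 (SE 0.47, adjusted p = 0.0514) and Clic4, a relative of Clic1, at 1.94 (SE 0.58, adjusted p = 0.0724), and the median was 0.79. In WT the lowest p-values were those of Clcn5 (log2 1.43, SE 0.52), Clcn7 (0.93, SE 0.45), a lysosomal exchanger, and Ano6 (0.94, SE 0.47), and 0 of 15 passed. Of 11 store-operated, purinergic, mechanosensitive and proton channel genes, 0 passed in cKO (edgeR, lowest adjusted p = 0.173) and 0 in WT (0.171), with medians of 0.53 and 0.68. Orai3, a store-operated calcium channel, was at 1.40 (SE 0.60), the stretch-gated Piezo1 at 0.88 (SE 0.46) and the ATP-gated P2rx4 at 1.13 (SE 0.64) in cKO. In WT, Piezo1 was at 1.23 (SE 0.46), the proton channel Hvcn1 at 1.19 (SE 0.46) and P2rx4 at 1.27 (SE 0.64). No gene of the 4 lists passed in cKO over WT in either hemisphere or in the interaction.

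The members did not vary together as 1 block over the 12 libraries. As a description, the log2 levels of Kcna3 and Kcnn4 had a Pearson correlation of 0.89, Kcna3 and Trpm7 of 0.86, and Trpm7 and Clic1 of 0.83, while Kcnn4 and Trpm2 were at -0.65. All libraries are shared by both genes of a pair, and the groups differ in depth. Clic1 followed the summed monocyte markers (0.88 on the log2 scale) and the log2 library total (0.92), and Trpm7 did so less closely (0.80 and 0.76). Most of the monocyte sum was Fn1, as given above. Kcnk6 followed the summed microglia markers (0.76), and Kcnma1 went down with the monocyte sum (-0.60) and up with the microglia sum (0.63). The part of these cells and of depth in the members' differences was not tested. WT CL library a showed both sides. At 6033 CPM of monocyte markers, nearly all of it Fn1, it had the highest Clic1 and Kcnj2 of the 6 CL libraries (105 and 44.2 CPM). Its Trpm7 level of 44.8 CPM lay inside the CL range. That library also had 806 CPM of endothelial and mural markers, against 105 and 85.4 in WT CL libraries b and c.

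**Figure D4:**
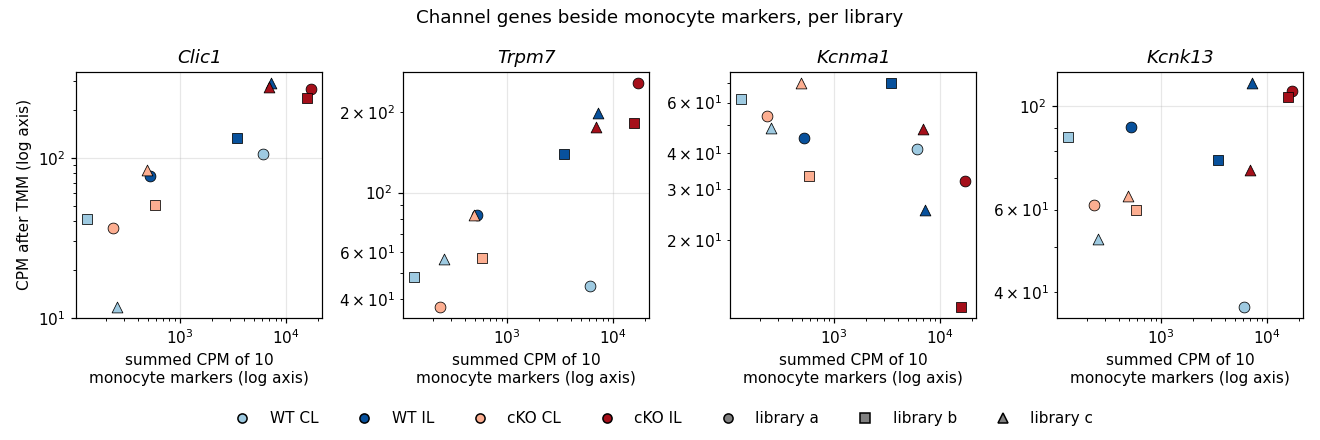
Levels of Clic1, Trpm7, Kcnma1 and Kcnk13 (CPM after TMM, log axis) against the summed CPM of 10 monocyte markers (log axis) in the 12 libraries, colored by group. The 3 cKO IL libraries sit at 6872 to 17370 CPM of markers and 236 to 275 CPM of Clic1, and WT CL library a at 6033 CPM of markers with 44.8 CPM of Trpm7. Most of the marker sum is Fn1.

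Among 10336 genes with a mean of at least 10 CPM, the genes whose pattern over the 12 libraries was most like a member's were, by Pearson correlation of log2 CPM, Pdia4, Calu and Ddb1 for Clic1 (each 0.99), and Smap1 and Ptbp3 for Trpm7 (each 0.99). For Kcnn4 they were Map4k1 (0.98), Golt1b (0.97) and Kcnab2 (0.96), the beta subunit that also rose in cKO. Trpv2 was followed by Nfkbib (0.98), Mdn1 and Brix1 (each 0.97), and Kcna3 by Tram2, Parp2 and Pbdc1 (each 0.95). Weaker partners were found for Kcnk13 (Slc26a11 and Surf1 at 0.94, Ube2q1 at 0.91), Kcnj2 (Irgm2 and Ttc3 at 0.92, Zfyve21 at 0.91), Kcnma1 (Adamts16 at 0.92, Tppp at 0.89, Tspan18 at 0.88), Trpm2 (Unc13d and Pik3r6 at 0.91, Zfp653 at 0.90) and Kcnk6 (Spire1 at 0.89, Marcksl1 at 0.85, Etv5 at 0.83). None of these partners is itself one of the 10 members.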

How the data were processed

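The authors made stranded total RNA libraries (SMARTer pico chemistry), sequenced them on an Illumina HiSeq, removed adapters, low-quality bases and reads of ribosomal RNA and mitochondrial DNA, and used STAR 2.5.3a within Partek 8.0 to align what remained to mm10. The annotation release and the strand setting of the counting are not given in the sources used here. The deposited values are raw counts per gene. Positions and exon lengths came from GENCODE on GRCm38, and promoters from RefSeq.

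Genes kept by filterByExpr (35674) were scaled by TMM and tested with edgeR 4.0.16 (R 4.3.3), a two-sided quasi-likelihood test in 1 fit of 12 libraries with 1 mean per group and no block. Benjamini-Hochberg adjustment covered all of them, and calls are those below 0.05 after adjustment. RPKM divides CPM by exon length. Correlations used log2 CPM with a prior count of 2. DESeq2 1.42.0, the study's tool, was an alternative on the same genes, as were RLE scaling, library totals, no filter, at least 10 counts in every library, the 6 libraries of a comparison, counts thinned to the smallest library, each library left out, and the study's thresholds. The script was tested on simulated data. Added after seeing the data were TMM from genes of at least 50 CPM and a block on the number heading the columns.

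The members and lists were chosen with earlier results of these data known. Named were all members, the 3 genes of each list with the lowest p, any called one, and the 3 genes most like each member. Some genes under this rule, and the level of the targeted gene, are not reported here.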

Additional observations from a re-analysis of the deposited data

How the results depend on the processing

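Of the 10 members, 1 was called for IL over CL in cKO. The count was 3 with DESeq2, 0 with RLE scaling, 0 with library totals, 4 with no filter on low counts, 3 with at least 10 counts in every library, 5 with the 6 libraries alone, 0 with counts thinned to the smallest library, 0 with TMM from abundant genes, 4 by the study's thresholds, and 0 to 4 when each library was left out. For IL over CL in WT it was 0, against 1 with DESeq2, 2 by the study's thresholds and 0 to 1 when each library was left out. Over all genes, the calls in cKO numbered 1233, against 6530 with DESeq2, 2561 with no filter, 2885 with at least 10 counts, 11159 with the 6 libraries alone and 0 to 5085 when each library was left out. In WT they numbered 217, against 3915, 1557, 1069, 0 and 5 to 1381. No member was called for cKO over WT or the interaction under any setting. Signs turned for Kcnk13 and Trpv2 in cKO with library totals (-0.29, -0.36) and TMM from abundant genes (-0.31, -0.39), and in WT for Kcnk13 (-0.23), Kcna3 (-0.28) and Trpm2 (-0.24) with TMM from abundant genes. When each library was left out, the log2 value ran from -1.24 to 0.64 for Kcnn4 in cKO over WT in CL, from -1.16 to 0.029 for Trpm2 in cKO over WT in IL, and from -0.26 to 0.92 for Trpm2 in IL over CL in WT. The cause was not tested. A replicate block on the labels' numbers was not run, since the columns carry none. The number heading the columns is shared by 1 CL and 1 IL library, whose deviations correlated at -0.13 to 0.21, so it was not taken as a pairing; with it as a replicate block, 1 member was called in cKO (Kcnn4, adjusted p = 0.0454, with Trpm7 at 0.0659), 0 in WT and 0 in the interaction, and 787 genes in all in cKO. Depth limits WT CL most, where the smallest library held 2091512 counts.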
